A study of Homo sapiens with 6 samples.

Results

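The aldo-keto reductases described here are the 10 genes AKR1A1, AKR1B1, AKR1B10, AKR1B15, AKR1C1, AKR1C2, AKR1C3, AKR1C4, AKR7A2 and AKR7A3, chosen by gene symbol. Of these 10 genes, 9 were matched to a row among the 25349 genes counted, and AKR1C4 is not analysed here. The counts come from SCC-9, an oral cancer line of squamous epithelial origin, grown from a human tongue tumour. Cells were transfected at 10 nM either with siE7, which targets exon 7 of MKI67 (the gene encoding the proliferation marker Ki67), or with the nonspecific control siNC. Transfections were made on days 0 and 2, cells were harvested for RNA on day 4, and each condition had 3 libraries. Both groups therefore carry the same transfection, and both grew in medium with serum and hydrocortisone. A single cell line was used, and the sources do not name which of the study's siRNAs against exon 7 gave these libraries. Nothing states that the 3 libraries of a group came from separate cultures, so the p-values measure the spread between these libraries, which may be technical. The question was whether AKR1C2 rose alone, with its AKR1C neighbours only, or together with the AKR1B, AKR7 and AKR1A genes.

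Aldo-keto reductases are soluble enzymes that use NADPH to reduce aldehydes and ketones to alcohols. The AKR1C enzymes act as hydroxysteroid and prostaglandin reductases, the AKR1B enzymes reduce glucose, lipid aldehydes and retinaldehyde, and the AKR7 enzymes act on aflatoxin dialdehyde and succinic semialdehyde. Several AKR1C and AKR1B genes are known targets of NRF2, the transcription factor of the oxidative stress response, and are often highly expressed in squamous carcinomas.

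The libraries held 25608192 to 29550264 counts on genes, and 14661 genes passed the filter on low counts. Levels are counts of a gene scaled to library size (CPM) with TMM factors. Differences are log2 fold changes of siE7 over siNC from the quasi-likelihood F-test of edgeR, and p-values were adjusted over all 14661 genes by the Benjamini-Hochberg method. The targeted gene, MKI67, was at 1070, 1030 and 1080 CPM with siNC and at 112, 124 and 108 CPM with siE7. The siE7 replicate 1 library stood apart from its group, with a chi-square per degree of freedom of 61.1 and 72.7 against the other siE7 libraries, where all other pairs within a group lay between 5.54 and 6.22. Keratins of squamous epithelium were high in every library (KRT14 at 9230 to 14200 CPM, KRT5 at 1400 to 2480 CPM), and the endothelial marker PECAM1 lay at 0.122 CPM or below. VIM, a mesenchymal gene that cultured carcinoma cells also express, was at 58.9 to 80.1 CPM and COL1A1 at 14.3 to 21.7 CPM. The epithelial genes CDH1 and EPCAM had lower means with siE7 (83.6 and 36.7 CPM) than with siNC (171 and 62.5 CPM), and their part in the aldo-keto reductase results was not tested. In RNA from whole cultures, more cells with a transcript and more of the transcript in each cell cannot be told apart.

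Of the 8 aldo-keto reductases that passed the filter, 4 rose with siE7 and none fell at an adjusted p under 0.05 (edgeR). They were all 3 AKR1C genes tested and 1 of the 3 AKR1B genes, AKR1B10, while AKR7A2 and AKR1A1 were not called. All 4 also had a log2 fold change above 1. Among all tested genes 18.0% were called higher, 16.0% lower, and 7.38% higher with a log2 fold change above 1. The median log2 fold change was 1.11 over the 8 members and 0.08 over all tested genes. AKR1B10 passed the filter only through its siE7 libraries, where it is high, so these counts and this median are a description and not support. With at least 10 counts required in every library, AKR1B10 was not tested and 3 members had a called change above 1. The rise was thus not seen in AKR1C2 alone, and it was not seen across the whole family. AKR7A3, an aflatoxin aldehyde reductase, had 13, 7 and 0 counts with siNC and 6, 3 and 1 with siE7, and it was too low to test. A count of 0 in that siNC library still allows up to 0.114 CPM (3 counts, counting error only).

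**Figure D1:**
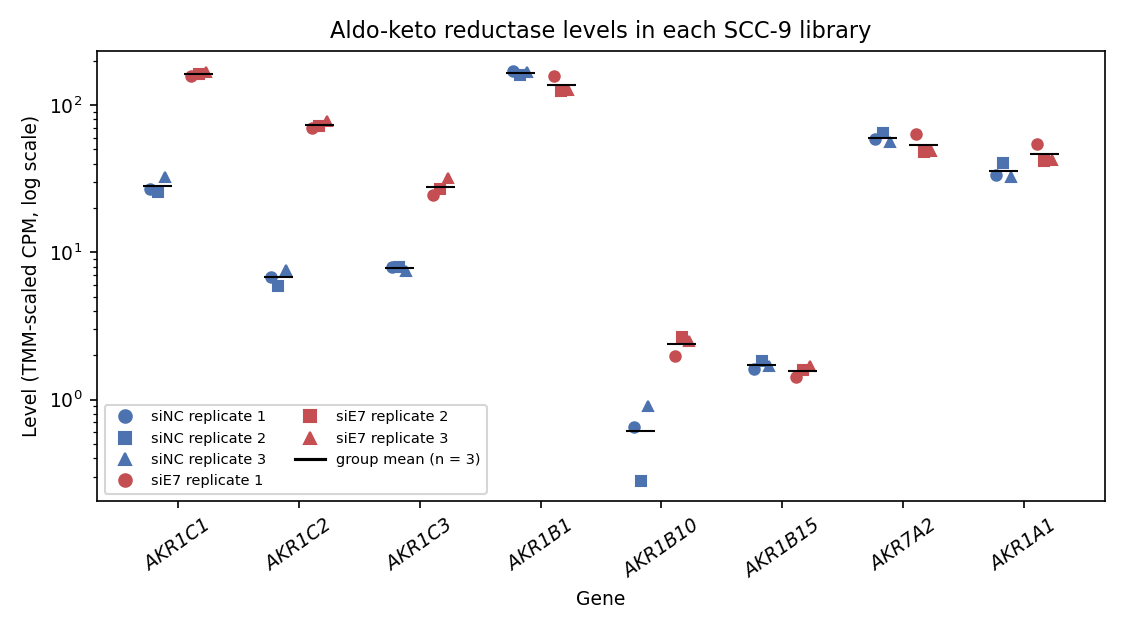
Levels of the 8 tested aldo-keto reductases in each library, in TMM-scaled CPM on a log scale, with siNC in blue and siE7 in red and group means (n = 3) as black bars. The siE7 points of AKR1C1, AKR1C2, AKR1C3 and AKR1B10 lie far above the siNC points, whereas the log2 fold changes of AKR1B1, AKR1B15, AKR7A2 and AKR1A1 lie between -0.28 and 0.38.

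The AKR1C genes lie side by side on chromosome 10 (GRCh38, GENCODE v44). AKR1C1 (ENSG00000187134.14) spans chr10:4963253-4983283 on the plus strand, AKR1C2 (ENSG00000151632.17) spans chr10:4987775-5018031 on the minus strand, and AKR1C3 (ENSG00000196139.14) spans chr10:5035354-5107686 on the plus strand.

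AKR1C2, which inactivates the androgen 5α-dihydrotestosterone, was at 6.80, 5.88 and 7.65 CPM with siNC and at 70.2, 72.5 and 77.8 CPM with siE7. Its mean went from 6.78 ± 0.883 to 73.5 ± 3.88 CPM (SD, n = 3), a log2 fold change of 3.44 with a 95% interval of 3.12 to 3.75 (edgeR adjusted p = 1.9e-07). The lowest siE7 library was thus far above the highest siNC library. By p-value it ranked 1 among the genes that were higher with siE7, and by log2 fold change it ranked 18.

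AKR1C1, which inactivates progesterone, was at 26.8, 25.9 and 32.5 CPM with siNC and at 157, 162 and 167 CPM with siE7. The mean rose from 28.4 ± 3.57 to 162 ± 5.00 CPM (SD, n = 3), a log2 fold change of 2.51 with a 95% interval of 2.23 to 2.78 (edgeR adjusted p = 3.7e-07). AKR1C1 gave more counts than AKR1C2 in every library, and its groups did not overlap.

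AKR1C3, which makes testosterone and prostaglandin F, was at 7.98, 7.97 and 7.42 CPM with siNC and at 24.5, 26.8 and 31.8 CPM with siE7. The mean rose from 7.79 ± 0.318 to 27.7 ± 3.74 CPM (SD, n = 3), a log2 fold change of 1.83 with a 95% interval of 1.50 to 2.17 (edgeR adjusted p = 1.1e-05). It had the smallest change of the 3 AKR1C genes, and its groups did not overlap. The 3 intervals did not overlap each other, so the order AKR1C2, AKR1C1, AKR1C3 stood apart from the error of each gene's fit.

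The AKR1C sequences are near copies of each other, which bears on how the reads were assigned. The coding sequences of the canonical transcripts were 98.04% identical between AKR1C1 and AKR1C2, 91.43% between AKR1C1 and AKR1C3, and 91.02% between AKR1C2 and AKR1C3. Of all windows of 150 bases in the transcript, 7.91% in AKR1C1, 17.2% in AKR1C2 and 2.12% in AKR1C3 occurred unchanged in another aldo-keto reductase gene. The split of counts between AKR1C1 and AKR1C2 is therefore uncertain. These shares count exact matches over canonical transcripts of 6543 bases for AKR1C1 and 3215 for AKR1C2, of which 969 bases are coding in each. The share within the coding part alone was not computed. The counts of AKR1C1 and AKR1C2 taken as 1 gene gave a log2 fold change of 2.74, and the sum of all AKR1C counts gave 2.61. The canonical transcripts of AKR1C1, AKR1C2 and AKR1C3 had a GC content of 42.2%, 41.1% and 46.2%, against 53.0% in AKR1B1, 56.3% in AKR1A1 and 61.0% in AKR7A2. After a trend of level on GC content was taken out of each library, the AKR1C genes still rose, with log2 fold changes of 2.40, 3.33 and 1.76. AKR1C2 also overlaps a long noncoding RNA gene on the other strand over 1893 bases. The paper states that the libraries were made with a stranded mRNA kit. The use of strand in counting is not given in the sources used here.

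**Figure D2:**
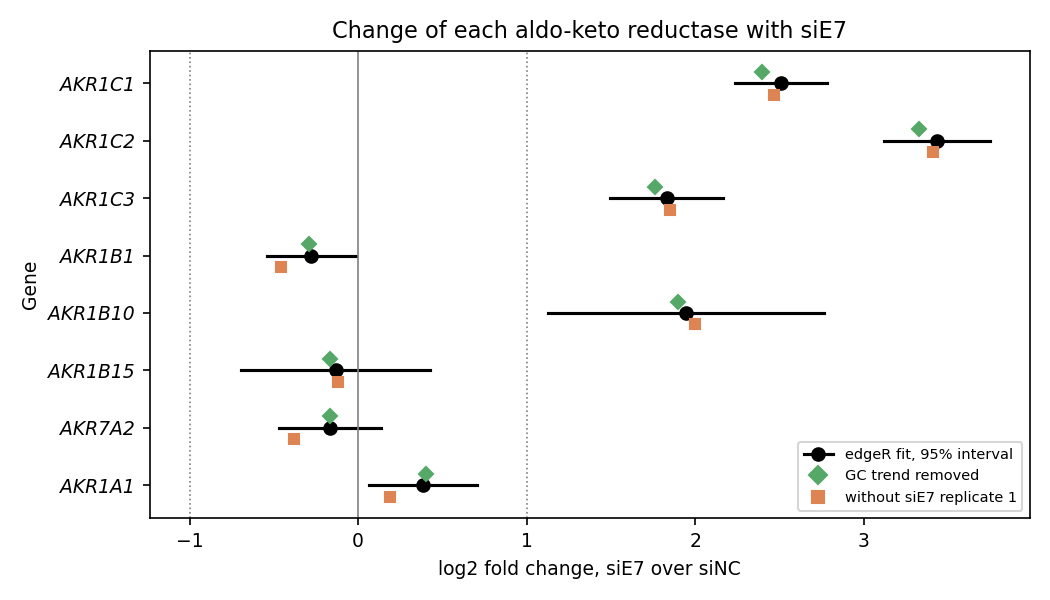
Log2 fold change of siE7 over siNC for the 8 tested genes, with the edgeR estimate and its 95% interval in black, the value after removal of the GC trend in green, and the value without siE7 replicate 1 in orange; dotted lines mark a change of 1. The AKR1C genes and AKR1B10 lie above 1 under all these fits, and the other 4 genes lie between -1 and 1.

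Ratios of genes within a library do not depend on how libraries are scaled, and they show whether the members moved by the same factor. The count of AKR1C2 was 25.5%, 22.7% and 23.6% of that of AKR1C1 with siNC, and 44.7%, 44.9% and 46.6% with siE7, a 1.90-fold higher ratio. In contrast, the count of AKR1C3 was 29.9%, 30.8% and 22.9% of that of AKR1C1 with siNC, and 15.6%, 16.6% and 19.1% with siE7. Neither ratio overlapped between groups, and each gave p = 0.1 by a two-sided exact permutation test, the smallest p that 3 against 3 libraries can give (0.12 after Benjamini-Hochberg adjustment over 6 ratios). In these libraries the counts relative to AKR1C1 were thus higher for AKR1C2 and lower for AKR1C3 with siE7. Neither p was under 0.05, which 3 against 3 libraries cannot reach. Without siE7 replicate 1 the AKR1C3 ratio gave p = 0.2 by the same permutation test. The AKR1C2 ratio also rests on the split of counts between AKR1C1 and AKR1C2, which is uncertain.

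Outside the AKR1C genes, AKR1B1 was at 6.34, 6.18 and 5.16 counts per AKR1C1 count with siNC, and at 1.01, 0.774 and 0.759 with siE7. For AKR7A2 these ratios were 2.19, 2.50 and 1.73 with siNC and 0.408, 0.295 and 0.291 with siE7. For AKR1A1 they were 1.26, 1.57 and 0.993 with siNC and 0.348, 0.259 and 0.256 with siE7. These 3 ratios did not overlap between groups either, each with an exact permutation p of 0.1 (0.12 adjusted). The ratio of AKR1B10 to AKR1C1 overlapped between groups, at 2.49%, 1.16% and 2.85% with siNC and 1.28%, 1.67% and 1.50% with siE7 (exact permutation p = 0.4, also 0.4 adjusted). The mean log2 ratio was different by -0.45 with siE7, and this value was not stable at a depth of 7 to 24 counts in the siNC libraries. It was -0.78 with 5 counts added to each gene and -0.86 without siNC replicate 2, where the exact permutation test gave the smallest p it allows (0.1 in both), and it was -0.20 without siNC replicate 3 and -0.30 without siNC replicate 1. Whether AKR1B10 and AKR1C1 changed by different factors was therefore not settled.

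**Figure D3:**
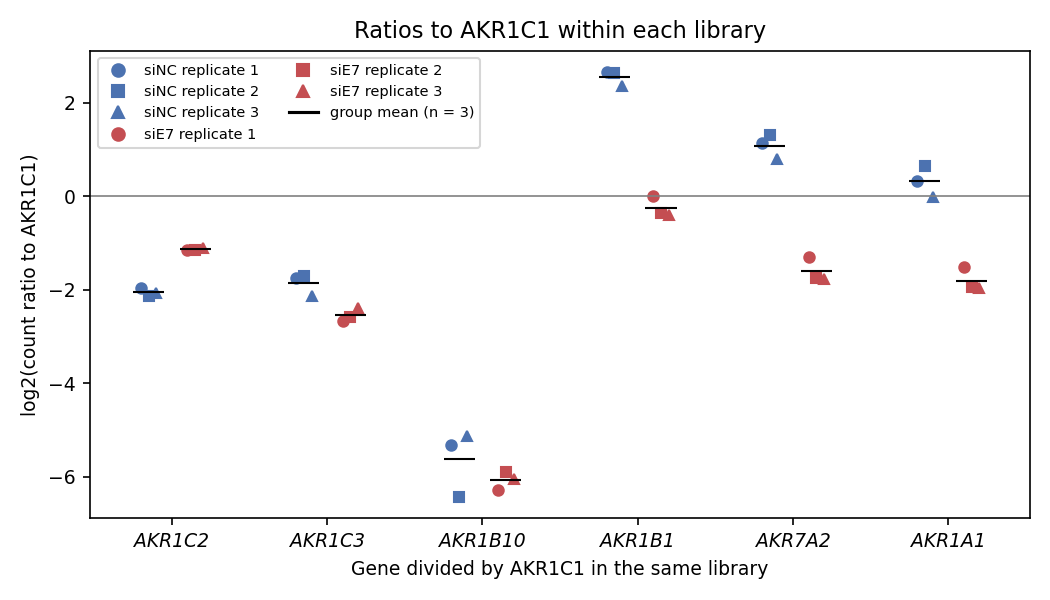
Log2 ratio of each gene's count to that of AKR1C1 in the same library, with siNC in blue, siE7 in red and the mean of each group (n = 3) as a black bar. The ratio of AKR1C2 is higher with siE7, those of AKR1C3, AKR1B1, AKR7A2 and AKR1A1 are lower, and that of AKR1B10 overlaps between groups.

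The promoters of the AKR1C genes are shown because these genes moved together, and that of AKR7A2 because it held matches to a motif of NRF2 while the gene was not called. RefSeq promoters (GRCh38.p14, 250 bases before to 50 bases after the start) were matched for 8 of the 10 members, and no promoter is shown for AKR1B10 and AKR1B15. They lie at chr10:4963165-4963464 (plus strand) for AKR1C1, chr10:5003808-5004107 (minus strand) for AKR1C2, chr10:5094164-5094463 (plus strand) for AKR1C3 and chr1:19312095-19312394 (minus strand) for AKR7A2. In the AKR1C sequences the capitals mark the longest run common to all 3, and in AKR7A2 they mark matches to the core of the antioxidant response element, TGACNNNGC, on either strand.
AKR1C1: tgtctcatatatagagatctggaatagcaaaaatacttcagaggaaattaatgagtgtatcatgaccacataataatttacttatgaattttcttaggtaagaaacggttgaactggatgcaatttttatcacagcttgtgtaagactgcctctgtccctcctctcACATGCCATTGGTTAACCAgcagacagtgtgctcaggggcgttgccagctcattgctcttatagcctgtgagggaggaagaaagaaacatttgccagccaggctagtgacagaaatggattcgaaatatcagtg
AKR1C2: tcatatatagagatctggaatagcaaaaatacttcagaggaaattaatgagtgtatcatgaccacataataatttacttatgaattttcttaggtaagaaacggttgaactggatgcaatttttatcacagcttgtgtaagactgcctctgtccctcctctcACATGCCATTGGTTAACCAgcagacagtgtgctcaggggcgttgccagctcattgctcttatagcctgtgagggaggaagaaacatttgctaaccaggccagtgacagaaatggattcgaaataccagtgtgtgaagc
AKR1C3: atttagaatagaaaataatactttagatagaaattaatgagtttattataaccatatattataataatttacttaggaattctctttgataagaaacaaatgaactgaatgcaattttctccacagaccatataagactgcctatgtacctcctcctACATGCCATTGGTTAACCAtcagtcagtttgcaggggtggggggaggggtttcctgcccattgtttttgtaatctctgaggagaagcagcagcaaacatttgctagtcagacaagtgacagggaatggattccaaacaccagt
AKR7A2: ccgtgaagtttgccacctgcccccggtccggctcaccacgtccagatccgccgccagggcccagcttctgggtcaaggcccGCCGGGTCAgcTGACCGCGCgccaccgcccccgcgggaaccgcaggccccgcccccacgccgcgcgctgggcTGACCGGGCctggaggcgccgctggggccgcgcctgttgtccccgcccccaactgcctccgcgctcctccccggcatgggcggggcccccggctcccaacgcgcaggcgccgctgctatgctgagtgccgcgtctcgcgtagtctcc
The promoters of AKR1C1 and AKR1C2 were 93.51% identical, against 70.98% for AKR1C1 and AKR1C3 and 69.47% for AKR1C2 and AKR1C3. The common run is 19 bases long, begins at -84, -88 and -93 relative to the start of AKR1C1, AKR1C2 and AKR1C3, and was found in 3 of 35116 RefSeq promoters. These are the 3 windows from which the run was taken, so they hold it by definition. The antioxidant response core was found in 13.35% of these promoters and the AP-1 motif TGACTCA in 4.95%. Among the members, AKR7A2 held 3 matches to the antioxidant response core, and no match to either motif was found in the windows of AKR1C1, AKR1C2, AKR1C3, AKR1A1, AKR1B1 or AKR7A3. The windows of AKR1C2 and AKR1C3 lie inside the gene spans given above, away from their upstream ends. Other starts of these genes were not searched. This describes these letters in these windows only.

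The AKR1B genes lie together on chromosome 7, and only AKR1B10 was called in the main edgeR fit. AKR1B1 (ENSG00000085662.14) spans chr7:134442356-134459284 on the minus strand, AKR1B10 (ENSG00000198074.10) spans chr7:134527567-134541412 on the plus strand, and AKR1B15 (ENSG00000227471.9) spans chr7:134549110-134579875 on the plus strand.

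AKR1B10, a retinaldehyde reductase that is induced in many carcinomas, had 16, 7 and 24 counts with siNC and 59, 74 and 76 counts with siE7. These are 0.648, 0.280 and 0.909 CPM against 1.99, 2.68 and 2.49 CPM, with means of 0.612 ± 0.316 and 2.39 ± 0.356 CPM (SD, n = 3). The log2 fold change was 1.95 with a 95% interval of 1.13 to 2.77 (edgeR adjusted p = 0.0024). The groups did not overlap, but the siNC counts were too low for the gene to pass the filter without its siE7 libraries. Summed with AKR1B15, its counts gave a log2 fold change of 0.76 (adjusted p = 0.019).

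AKR1B1, the aldose reductase of the polyol pathway, had the most counts per kb of the members with siNC, at 170, 160 and 168 CPM. With siE7 it was at 159, 125 and 127 CPM, and the mean was 166 ± 5.02 against 137 ± 18.8 CPM (SD, n = 3). The log2 fold change of -0.28 (95% interval -0.54 to -0.01) was not called (edgeR adjusted p = 0.096), although every siE7 library was below every siNC library. Without siE7 replicate 1 the value was -0.46 (adjusted p = 6.4e-09), and with the GC trend removed it was -0.29 (adjusted p = 0.0019), so whether AKR1B1 was called lower depended on this library and on the GC trend.

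AKR1B15, a close relative of AKR1B10 that reduces ketosteroids, was at 1.62, 1.84 and 1.70 CPM with siNC and at 1.42, 1.59 and 1.70 CPM with siE7. The groups overlapped, and the log2 fold change was -0.13 (95% interval -0.69 to 0.43, edgeR adjusted p = 0.72). The coding sequences of AKR1B10 and AKR1B15 were 85.27% identical, and no window of 150 bases was shared between them or with AKR1B1. The interval of AKR1B15 ended below the 1.13 at which that of AKR1B10 began. Since AKR1B10 passed the filter only through its siE7 libraries, this is a description and not support for a difference between them.

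The AKR7 genes and AKR1A1 lie apart on chromosome 1. AKR7A2 (ENSG00000053371.13) spans chr1:19303965-19312144 on the minus strand, AKR7A3 (ENSG00000162482.5) spans chr1:19282573-19288770 on the minus strand, and AKR1A1 (ENSG00000117448.14) spans chr1:45550543-45570049 on the plus strand.

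AKR7A2, the succinic semialdehyde reductase, was at 58.7, 64.9 and 56.3 CPM with siNC and at 63.9, 47.7 and 48.6 CPM with siE7. The groups overlapped through siE7 replicate 1, which was the highest siE7 library. The log2 fold change was -0.17 (95% interval -0.47 to 0.13, edgeR adjusted p = 0.37), and without siE7 replicate 1 it was -0.38 (adjusted p = 2.7e-05).

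AKR1A1, the general aldehyde reductase that also reduces glucuronate, was at 33.7, 40.6 and 32.3 CPM with siNC and at 54.6, 41.8 and 42.7 CPM with siE7. Every siE7 library was above every siNC library, but the log2 fold change of 0.38 (95% interval 0.07 to 0.70) was not called (edgeR adjusted p = 0.061). It passed the threshold under 5 alternatives, at 0.55 without composition scaling (adjusted p = 0.01) and at 0.40 with the GC trend removed (adjusted p = 0.0018), and it was 0.19 without siE7 replicate 1. The siE7 replicate 1 library was the highest siE7 library for AKR1A1, AKR1B1 and AKR7A2, and the lowest for AKR1C1, AKR1C2, AKR1C3, AKR1B10 and AKR1B15. Of the 8 tested members, 6 did not overlap between groups, 5 of them higher with siE7 (AKR1B10 included), where 47.6% of all tested genes did not overlap in either direction.

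Levels of different genes can be compared only per length, here as CPM per kb of all annotated exons. With siNC the order was AKR1B1 at 45.4, AKR7A2 at 33.7, AKR1A1 at 11.4, AKR1C1 at 3.24, AKR1C3 at 1.99 and AKR1C2 at 1.11. With siE7 it was AKR1B1 at 37.4, AKR7A2 at 30.0, AKR1C1 at 18.5, AKR1A1 at 14.9, AKR1C2 at 12.1 and AKR1C3 at 7.09. By these lengths AKR1C2 went from below AKR1C3 to above it, while AKR1B1 and AKR7A2 remained the 2 highest. With the length of the canonical transcript instead, the 3 AKR1C genes with siE7 lay closer together, AKR1C1 at 24.7, AKR1C3 at 23.4 and AKR1C2 at 22.9, so their order depended on the length used.

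The AKR1C genes made up 6.49% ± 0.62 of the summed level per kb of the 9 members with siNC and 31.1% ± 3.9 with siE7 (SD, n = 3). The AKR1B share was 47.3% with siNC and 32.2% with siE7, the AKR7 share was 34.6% and 24.6%, and the AKR1A1 share was 11.6% and 12.1%. With the canonical lengths the AKR1C share was 6.33% ± 0.36 and 29.0% ± 4.0. The summed level was 97.9 with siNC and 122 with siE7. By this measure most aldo-keto reductase transcripts still came from AKR1B1, AKR7A2 and AKR1A1, but the shares rest on the annotated lengths. AKR1C1 was divided by 8765 bases and AKR1B1 by 3654, while with siE7 AKR1C1 was at 162 CPM and AKR1B1 at 137 CPM. The lengths of the transcripts in these cells were not measured.

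**Figure D4:**
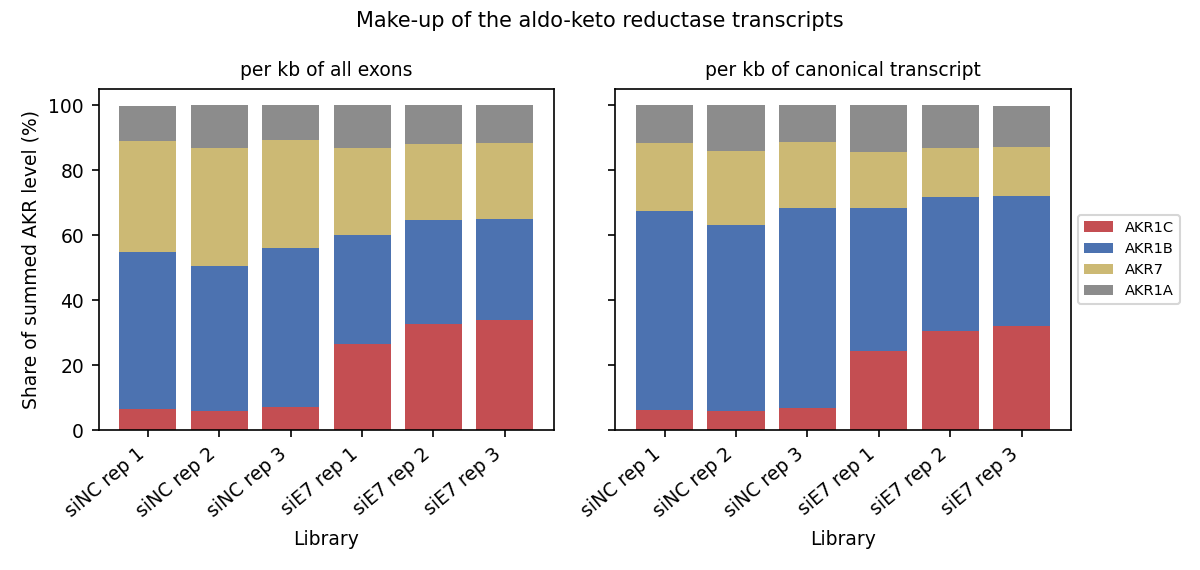
Share of each subfamily in the summed level per kb of the 9 members with a row, for each library, with lengths from all exons (left) and from the canonical transcript (right). The AKR1C share lies between 5.95% and 7.17% in the siNC libraries and between 26.6% and 34.0% in the siE7 libraries with the lengths from all exons.

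Of 10 further genes of the superfamily, 7 had a row and 2 were tested, and neither was called with all 6 libraries (edgeR). AKR1E2, which lies 115.2 kb from the AKR1C genes, was at 3.89 ± 0.594 CPM with siNC and 2.77 ± 0.709 CPM with siE7 (SD, n = 3), a log2 fold change of -0.49 (adjusted p = 0.15). Without siE7 replicate 1 it was called lower, at -0.76 (adjusted p = 0.0046), and it was -0.32 (adjusted p = 0.40) without siE7 replicate 3. KCNAB2, a beta subunit of potassium channels, was at 3.43 ± 0.592 and 2.57 ± 0.480 CPM (adjusted p = 0.20). Among the genes below the filter, KCNAB1 had 0, 0 and 0 counts with siNC and 3, 16 and 2 with siE7. It was called by DESeq2 (adjusted p = 0.022) and by edgeR without the filter (adjusted p = 0.0048).

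The genes next to the clusters were compared to see whether whole regions moved. Of the protein-coding genes within 500 kb that were tested, none rose beside AKR1C (2 tested), AKR1B (5 tested) or AKR7 (10 tested), and 2 of 14 rose beside AKR1A1. With 18.0% of all tested genes higher and 16.0% lower, these small counts do not set the neighbours apart from other genes. Beside AKR1C, NET1, an exchange factor for RhoA, fell from 158 to 68.7 CPM (log2 fold change -1.20) at 304.9 kb. Beside AKR1B, log2 fold changes lay between -0.40 and 0.18 and none was called. Beside AKR7, 4 genes fell, namely IFFO2 (log2 fold change -1.06), ALDH4A1 (-0.81), NBL1 (-0.74) and MRTO4 (-0.49). That count was 9 without siE7 replicate 1, and 2 without siNC replicate 1 or siE7 replicate 2. Beside AKR1A1, GPBP1L1 (0.66) and TMEM69 (0.47) rose, and TOE1 (-1.32) and MAST2 (-0.59) fell. Without siE7 replicate 1, 4 genes rose there and 1 AKR1B neighbour fell, and 1 gene rose beside AKR1A1 without siNC replicate 2, siNC replicate 3 or siE7 replicate 2.

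Genes known as NRF2 targets were listed without the aldo-keto reductases. Of 37 tested, 17 rose, 4 fell and 16 were not called, with a median log2 fold change of 0.28 against 0.08 over all tested genes, of which 18.0% were called higher and 16.0% lower. PIR, an iron-binding nuclear protein, rose from 8.57 to 33.0 CPM (log2 fold change 1.94). HMOX1, the heme oxygenase, rose from 7.11 to 25.7 CPM (1.85), and PTGR1, a prostaglandin and alkenal reductase, rose from 69.7 to 172 CPM (1.30). The 4 that fell were CBR1 (-0.80), CBR3 (-0.93), NQO1 (-0.34) and SLC48A1 (-0.38), of which the last 3 were named after their values were seen. CBR1 and CBR3 are carbonyl reductases of another enzyme family, and NQO1 is a quinone reductase. The count of lower genes was 8 without siE7 replicate 1 and 2 without any other single library, and it was also 2 without composition scaling.

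The NRF2 regulators were mostly not called. NFE2L2, the gene of NRF2 itself, was at 18.3, 19.5 and 18.4 CPM with siNC and at 13.8, 25.5 and 25.2 CPM with siE7, with siE7 replicate 1 below and the other siE7 libraries above the siNC range (log2 fold change 0.20, edgeR adjusted p = 0.50). KEAP1, the inhibitor of NRF2, was at 44.5 ± 2.38 and 56.2 ± 7.19 CPM (log2 fold change 0.34, adjusted p = 0.059, n = 3). Among 8 regulators tested, MAFG rose (0.70) and MAFF fell (-0.49), where 18.0% of all tested genes were higher and 16.0% lower. MAFG was also in the list of NRF2 targets. Without siE7 replicate 1, 3 regulators rose. The lower count was 0 without siNC replicate 1, siNC replicate 3, siE7 replicate 2 or siE7 replicate 3.

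Short-chain dehydrogenases and reductases form another family of enzymes that reduce carbonyls. Of 30 tested, 2 rose, 10 fell and 18 were not called, where 18.0% of all tested genes were higher and 16.0% lower. DHRS2 fell from 7.01 to 1.36 CPM (log2 fold change -2.36), and HSD11B1, which regenerates cortisol, fell from 11.2 to 2.17 CPM (-2.36). CBR1 fell from 59.5 to 34.1 CPM. The 2 that rose, RDH11 (0.55) and RDH14 (0.58), act on retinal and were named after their values were seen. The number that rose was 7 without siE7 replicate 1 and 0 without siNC replicate 1, siNC replicate 2, siE7 replicate 2 or siE7 replicate 3. The number that fell was 5 or 6 without any one siNC library or without siE7 replicate 2.

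Of 21 genes of steroid metabolism and steroid receptors tested, 1 rose, 6 fell and 14 were not called. Over all tested genes, 18.0% were called higher and 16.0% lower. The estrogen receptor gene ESR2 rose from 0.422 to 1.57 CPM (log2 fold change 1.89), although it passed the filter on low counts only through its siE7 libraries. The steroid sulfatase STS fell from 4.78 to 1.33 CPM (-1.85). HSD11B1 and several HSD17B genes stand in both this list and the preceding one. The number that rose was 4 without siE7 replicate 1, and 2 without siNC replicate 2 or siNC replicate 3. Of 15 genes of prostaglandin metabolism tested, 2 rose, 3 fell and 10 were not called, beside the same shares of all tested genes. SLCO2A1, the prostaglandin transporter, fell from 8.94 to 1.01 CPM (-3.13). PTGR1 and PTGR2 (0.87) rose, and CBR1 and PTGES2 (-0.34) fell, where PTGR2 and PTGES2 were named after their values were seen. Without siE7 replicate 1, 4 genes rose and 6 fell in this list.

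Of 19 genes of the polyol pathway and of aldehyde detoxification tested, 1 rose, 5 fell and 13 were not called. Over all tested genes, 18.0% were called higher and 16.0% lower. ALDH1A3, a retinaldehyde dehydrogenase, fell from 165 to 55.3 CPM (log2 fold change -1.57). ALDH1B1 (-0.75) and the xylulose reductase DCXR (-0.53) fell as well, as did ALDH2 (-0.51) and ALDH9A1 (-0.40), and the glutathione transferase GSTA4 was called higher (1.34). These last 3 were named after their values were seen. GSTA4 passed the filter only through its siE7 libraries, and no gene of this list was higher with DESeq2, with at least 10 counts in every library, or without any one siNC library or siE7 replicate 3. Leaving out siE7 replicate 1 gave 10 lower and 4 higher genes in this list, and leaving out any other library gave 2 or 3 lower genes.

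The genes whose pattern over the 6 libraries was nearest to that of AKR1C2 were AXIN2, SMAD6, LINC02361, RSPH1 and ANKRD1. The distance, the square root of the summed squared differences of log2 levels relative to the siNC mean, was 0.488 for AXIN2 and 1.12 for ANKRD1. Their log2 fold changes lay between 2.99 and 3.76. None of the other aldo-keto reductases was among these 5 genes. The distance also grows with a difference in the size of the change, and AKR1C1 (2.51) and AKR1C3 (1.83) had smaller changes than AKR1C2. Likeness of this kind says nothing of shared control.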

How the data were processed

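SCC-9 cells received siE7 or siNC (3 libraries each). The authors deposited whole-number read counts per gene without normalization. The submitters' processing notes name HISAT2, DESeq2 and GRCh38, and the counting tool and its use of strand are not given in the sources used here. Library totals are in the text, and precision was limited by 3 libraries per group.

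Genes were filtered with filterByExpr and scaled by TMM, and siE7 was compared with siNC by the robust quasi-likelihood F-test of edgeR 4.0.16 (R 4.3.3) over all 6 libraries, with Benjamini-Hochberg adjustment and a threshold of 0.05. Ratios within a library were compared by exact permutation tests. Scripts were tested on simulated data. Positions and lengths came from GENCODE v44 (25283 of 25349 identifiers matched without version, 20655 with it), and promoters from RefSeq. The pattern nearest to AKR1C2 was taken over log2(CPM + 0.1).

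Members and lists were chosen with earlier results of these data known. Named genes are the members, the other aldo-keto reductases, MKI67, NFE2L2, KEAP1, the 3 smallest p-values among the called genes of each list, called neighbours within 500 kb and the 5 genes nearest to AKR1C2. Alternatives were DESeq2 1.42.0, 3 other scalings, 2 other count filters, a replicate block, removal of a lowess GC trend (span 0.3), summed related genes and each library left out.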

Additional observations from a re-analysis of the deposited data

How the results depend on the processing

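AKR1C1, AKR1C2, AKR1C3 and AKR1B10 kept their direction and their call under every alternative that tested them. Fitted as single genes they had log2 fold changes of 2.40 to 2.68, 3.33 to 3.61, 1.72 to 2.00 and 1.60 to 2.34 (AKR1B10 was not tested with at least 10 counts in every library). AKR1B10 passed the main filter only through its siE7 libraries, so its repeated calls are a description and not support. Summed with related genes, the values were 2.74 for AKR1C1 with AKR1C2, 2.61 for all AKR1C genes and 0.76 for AKR1B10 with AKR1B15. AKR1A1 passed the threshold with upper-quartile scaling (0.41), with no composition scaling (0.55), with at least 10 counts in every library (0.41), and with the GC trend removed, without and with the replicate block (0.40 in both). AKR1B1 passed it with the GC trend removed, without and with the block (-0.29 in both), which gave 1 member called lower in each. With single libraries left out, AKR1B1 lay between -0.46 and -0.22, AKR7A2 between -0.38 and -0.09, and 0 to 2 members were called lower; the 2 came without siE7 replicate 1. AKR1B15 changed sign with no composition scaling (0.04) and when summed with AKR1B10 (0.76). Without composition scaling the median of all tested genes was 0.25, and 71.18% of calls were higher, against 52.89% with it.

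Counts in the lists moved more. With DESeq2, 1 other aldo-keto reductase and 1 AKR1B neighbour were higher, 5 prostaglandin genes were lower, 0 polyol and aldehyde genes were higher, and 1 AKR1A1 neighbour was higher. With RLE scaling, 5 prostaglandin genes were lower and 1 AKR1A1 neighbour higher. With upper-quartile scaling, 2 NRF2 regulators and 3 steroid genes were higher. With no composition scaling, 2 NRF2 targets were lower, 3 NRF2 regulators, 7 short-chain reductases, 4 steroid genes, 3 polyol and aldehyde genes, 6 AKR1A1 neighbours and 1 AKR7 neighbour were higher, and 3 polyol and aldehyde genes were lower. With no low count filter, 1 other aldo-keto reductase, 4 short-chain reductases, 3 steroid genes and 1 AKR1B neighbour were higher, and 8 prostaglandin genes were lower. With at least 10 counts in every library, 2 NRF2 regulators, 2 steroid genes and 0 polyol and aldehyde genes were higher. With the GC trend removed, 2 NRF2 regulators, 6 short-chain reductases, 3 steroid genes, 5 AKR1A1 neighbours and 1 AKR7 neighbour were higher, and 6 prostaglandin genes, 9 polyol and aldehyde genes and 2 AKR1B neighbours were lower. With the GC trend removed and the replicate block, 2 NRF2 regulators, 5 short-chain reductases, 3 steroid genes, 2 polyol and aldehyde genes and 1 AKR7 neighbour were higher, and 7 prostaglandin genes, 9 polyol and aldehyde genes, 7 AKR7 neighbours and 2 AKR1B neighbours were lower. With single libraries left out, the lower counts ranged from 0 to 1 for other aldo-keto reductases, 2 to 8 for NRF2 targets, 0 to 1 for NRF2 regulators, 5 to 11 for short-chain reductases, 2 to 6 for prostaglandin genes, 2 to 10 for polyol and aldehyde genes, 2 to 9 for AKR7 neighbours, 1 to 2 for AKR1C neighbours and 0 to 1 for AKR1B neighbours. The higher counts ranged from 1 to 3 for NRF2 regulators, 0 to 7 for short-chain reductases, 1 to 4 for steroid genes, 2 to 4 for prostaglandin genes, 0 to 4 for polyol and aldehyde genes and 1 to 4 for AKR1A1 neighbours. The cause of these moves was not tested.

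Same-numbered libraries showed no shared deviation from the group means (correlations of -0.039, -0.021 and -0.052). This cannot show whether they were paired in culture, which is not stated. With the replicate block, 2590 genes were higher and 2357 lower, against 2639 and 2351, 2 NRF2 targets and 5 prostaglandin genes were lower, 3 steroid genes were higher, and no member's call changed. Ratios to AKR1C1 kept their sign in every alternative, but that of AKR1B10 ranged from -0.86 to -0.20.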
